A study of Macaca mulatta with 22 samples.

Results

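The genes described here belong to families of cell-surface adhesion molecules and synaptic organisers, measured in prefrontal cortex from young rhesus macaques, Macaca mulatta. N6-methyladenosine (m6A) is a methyl mark on adenosines inside mRNA. In m6A-seq, an antibody pulls down RNA fragments that carry it, and stretches with more fragments than the background are listed as peaks. A gene was a member if a peak was called in it in at least 1 animal and its symbol began with PCDH, NRXN, NLGN, LRRTM, LRFN, ADGR, CNTN, TENM, FLRT or SLITRK, or with CDH and a digit. Within these families the symbol alone chose the members, and no measured value beyond the presence of a peak. The families themselves were named with earlier results of these data known. Of the 3671 Ensembl gene identifiers with a peak, 40 were members, carrying 39 symbols, since the protocadherin PCDH7 had 2 identifiers. They held 114 of the 10069 peaks.

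Sevoflurane, the agent tested, is a volatile anaesthetic used in children. The exposed group held 5 animals (D and S1, both male, and the females F, S2 and S3). They breathed sevoflurane at about 2.5 to 3%, for 4 h each time, near postnatal days 7, 21 and 35. The control group held 6 animals (A and B, both male, and the females C, C1, C2 and C3). All animals were labelled postnatal day 35, and each gave 1 list of peaks. The labels give no gas, handling or anaesthesia for controls. No RNA level enters these comparisons, so more methylation of a transcript, more of the transcript, or more cells that make it cannot be told apart. A peak is an enriched stretch and does not mark a single base.

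These families join the 2 sides of a synapse, or neighbouring cell membranes. Latrophilins, adhesion G-protein-coupled receptors of the ADGR family, bind teneurins (TENM) and FLRT proteins across the cleft. Presynaptic neurexins (NRXN) bind postsynaptic neuroligins (NLGN) and LRRTM proteins, while SLITRK and LRFN proteins bind receptor protein tyrosine phosphatases on the axon. Cadherins (CDH) and protocadherins (PCDH) bind mostly their own kind, and contactins (CNTN) are membrane-anchored molecules of axons. The m6A mark as such is deposited by the METTL3-METTL14 methyltransferase, often in long internal exons and near stop codons, and it affects splicing, decay and translation of the mRNA.

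All 5 sevoflurane lists held more genes than 5 of the 6 control lists. They held 1043 ± 222 genes with a peak, against 601 ± 235 in control animals (SD, n = 5 and 6), and the exact permutation test of the log2 counts gave p = 0.0152 (two-sided). The third numbered control, C3, stood apart from its group with 1050 genes. Within males the log2 difference was 0.70 and within females 0.96, with exact permutation p-values of 0.333, the smallest that 2 males against 2 can give, and 0.0857. Within the animals named by 1 letter it was 1.02, and within the numbered animals 0.67, with exact permutation p-values of 0.10 and 0.20, where neither subset can give less than 0.10. Without read totals, sequencing depth is unknown.

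For the family members the ratio between the groups was smaller than for all genes. Members with a peak numbered 9 in D, 8 in F, 8 in S1, 12 in S2 and 11 in S3 among sevoflurane animals. Among control animals it was 9 in A, 7 in B, 5 in C, 3 in C1, 10 in C2 and 11 in C3. The groups overlapped between 8 and 11 members, and controls B, C and C1 lay below every sevoflurane animal. The means were 9.6 ± 1.82 in sevoflurane animals and 7.5 ± 3.08 in control animals (SD, n = 5 and 6), a ratio of 1.28, where that of all genes was 1.74. In lists cut to equal length the order turned, with 4.2 ± 1.10 and 4.83 ± 1.33 members. Without C3 the difference was 2.8 members, against 2.1 with it. Within females the means were 10.3 ± 2.08 in sevoflurane animals and 7.25 ± 3.86 in control animals (n = 3 and 4), and within males 8.5 ± 0.71 and 8.0 ± 1.41 (n = 2 each).

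Relative to the length of each list in genes, the members made up 0.931 ± 0.116% in sevoflurane animals and 1.25 ± 0.339% in control animals (SD, n = 5 and 6). The sevoflurane lists lay between 0.779% and 1.09%, and the control lists between 0.737% and 1.61%, so the sevoflurane range lay inside the control range. The lowest value of all was that of control C1, the shortest list, and the highest that of control A. No test was made of this share, since the families were named with results of these data known.

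**Figure D1:**
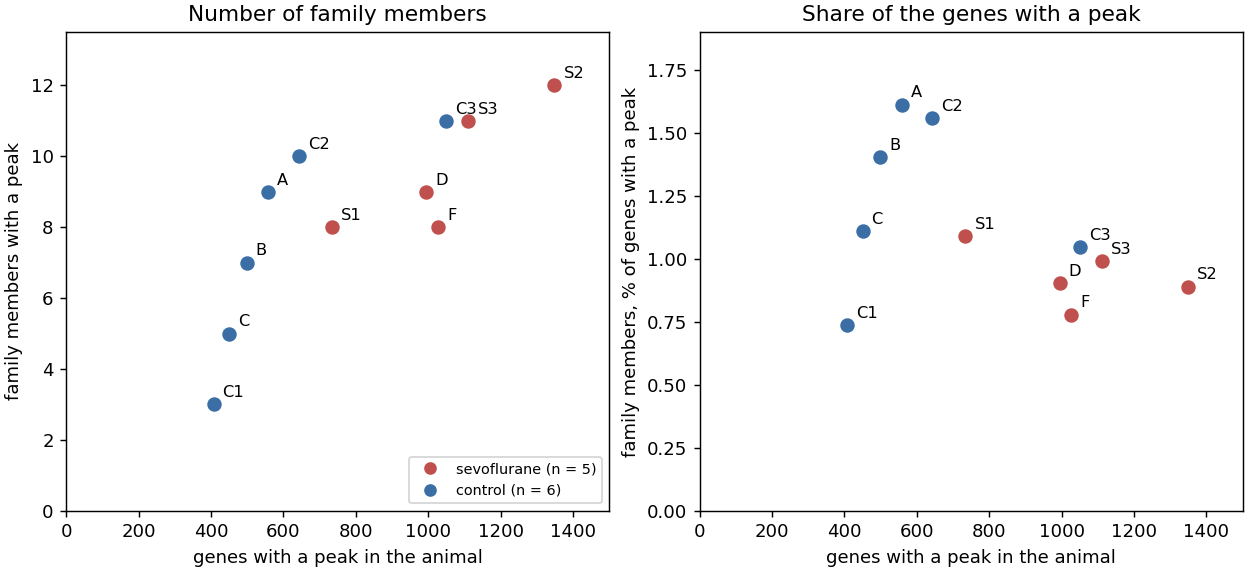
The number of family members with a peak (left) and their share of all genes with a peak in percent (right) are plotted against the number of genes with a peak, 1 point per animal, sevoflurane animals in red and control animals in blue. Short control lists hold between 3 and 10 members, and the sevoflurane lists between 8 and 12.

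The members were divided between the groups otherwise than genes at large, in counts given without a test. Among the 39 members, 11 had peaks in sevoflurane animals alone, 15 in control animals alone and 13 in both. Among all 3671 genes, 1650 (44.9%) had peaks in sevoflurane animals alone, 838 (22.8%) in control animals alone and 1183 (32.2%) in both. Of the 20 members seen in a single animal, 6 were in a sevoflurane animal and 14 in a control animal, whereas for all genes these numbers were 1298 and 755. The share of animals with a peak was larger in the sevoflurane group for 21 members and larger in the control group for 17, with 1 equal. The median difference was 3.33 percentage points for members, against 20.0 points for all genes. Among those in 2 to 9 animals it was 15.0 points for the 18 member identifiers, 14 of them larger in the sevoflurane group and 4 in the control group, and 23.3 points for all 1486.

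**Figure D2:**
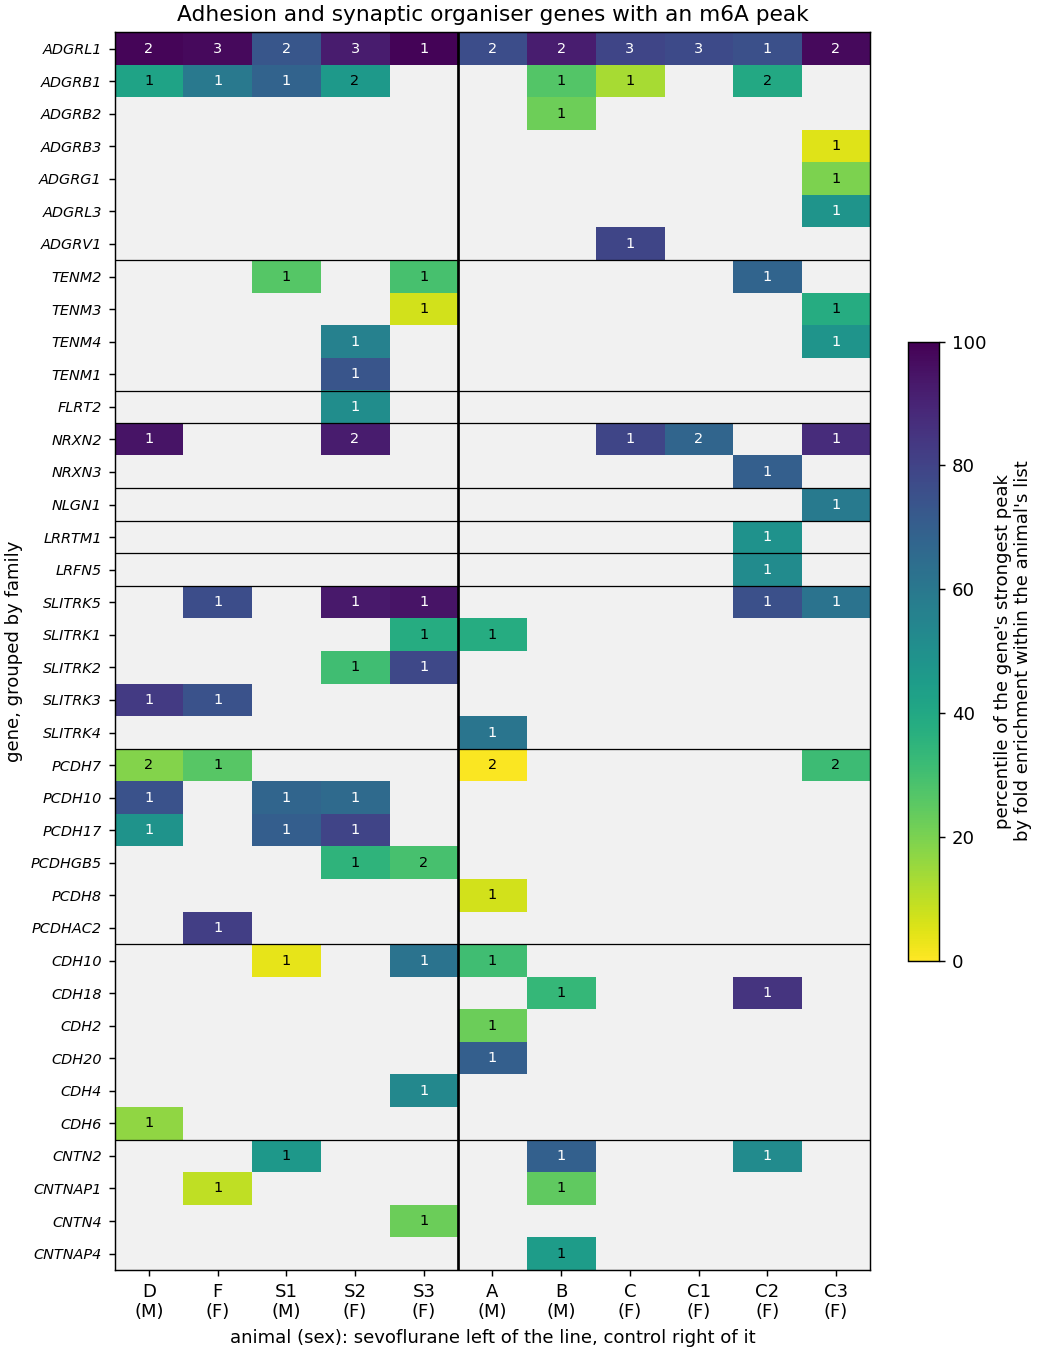
Each row is 1 of 38 member genes, grouped by family, and each column an animal, sevoflurane animals left of the line and control animals right of it. A filled cell marks at least 1 peak, its number gives the peaks listed (PCDH7 counts the same stretch under 2 identifiers in D, A and C3), and its colour gives the rank of the strongest peak within that animal's list. ADGRL1 fills every column, and most other rows hold 1 to 3 filled cells.

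No member passed a test of presence by treatment. Fisher's exact test could be run on genes with a peak in 2 to 9 of the 11 animals, which took in 1486 identifiers, 18 of them members with 17 symbols. At an unadjusted p under 0.05, 27 of the 1486 (1.82%) were more frequent after sevoflurane, and 0 (0.0%) were more frequent in controls. Members made up 0 of these 27. After Benjamini-Hochberg adjustment 0 of the 1486 genes (0.0%) had p under 0.05, and the smallest adjusted p was 0.606. Among stretches, where overlapping peaks of different animals were joined, 19 of 1265 (1.5%) were more frequent after sevoflurane at an unadjusted p under 0.05, 0 (0.0%) in controls and 0 (0.0%) in either direction after adjustment. None of the 11 member stretches tested was among the 19. With 5 animals against 6, a gene in 2 or 3 animals can give no Fisher's exact p below 0.182 or 0.0606, so 13 of the 17 member symbols could not have reached an unadjusted p under 0.05. ADGRB1, NRXN2, SLITRK5 and PCDH7, in 4 to 7 animals, could have, as could 430 of the 1486 identifiers. The other 22 members were not tested and could not have reached it either.

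Latrophilin 1 (ADGRL1, ENSMMUG00000014137), a neuronal adhesion receptor first known as a target of black widow spider venom, had a peak in all 11 animals. It lies on the minus strand of chromosome 19, in coordinates of the rheMac8 assembly, which apply throughout. Its 24 peaks fell into 4 stretches, all classed as exonic by the authors. The stretch in every list spanned chr19:14158119-14158568, and its peaks were centred between 986 and 1061 bases from the 3′ end of the annotated transcript. The authors' fold enrichment there was 68.2 in D, 53.3 in F, 12.0 in S1, 14.6 in S2 and 115 in S3 among sevoflurane animals. Among control animals it was 23.3 in A, 42.4 in B, 26.9 in C, 10.7 in C1, 18.9 in C2 and 39.2 in C3. S1 and S2 lay within the range of the control animals and the other 3 sevoflurane animals above it. The enrichment is each list's own, so this order was not tested and does not show a difference in methylation.

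A second ADGRL1 stretch lay farther into the transcript, at chr19:14160242-14160600, in 4 sevoflurane animals (D, F, S1 and S2) and 4 control animals (A, C, C1 and C3). There the enrichment was 3.78 in D, 2.84 in F, 4.63 in S1 and 3.28 in S2, and 3.11 in A, 2.41 in C, 2.63 in C1 and 2.55 in C3. In each of these 8 animals the stretch nearer the 3′ end was the more enriched, by 2.59 to 18.8 times with a median of 9.33. Between them, chr19:14158926-14159106 held a peak in sevoflurane animals F (22.7) and S2 (31.9) and in control animals B (9.72) and C1 (13.4), and in S2 and C1 it was the most enriched of the gene. Control C alone had a peak within the body of the gene, at chr19:14172813-14172903, with an enrichment of 2.29.

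**Figure D3:**
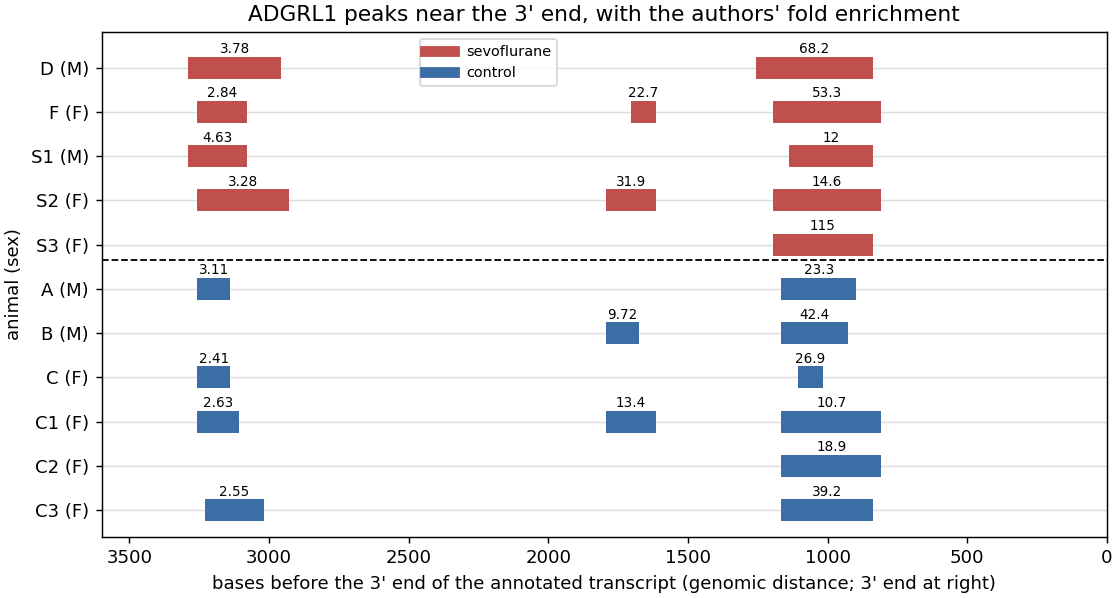
Bars show the ADGRL1 peaks of each animal by their distance in bases from the 3′ end of the annotated transcript, with the 3′ end at the right, sevoflurane animals in red above the dashed line and control animals in blue below it. The number above a bar is the authors' fold enrichment, and the peak of control C in the body of the gene lies outside the plot. The stretch nearest the 3′ end is present in all 11 rows.

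To set ADGRL1 against the other peaks of its own list, the percentile of its strongest peak by fold enrichment was taken, where 100 is the strongest peak of the list. It was 98.6 in D, 97.3 in F, 73.1 in S1, 92.5 in S2 and 98.9 in S3, and 76.5 in A, 92.1 in B, 79.0 in C, 77.5 in C1, 75.6 in C2 and 97.4 in C3. ADGRL1 thus stood in the upper part of every list, and the sevoflurane animal S1 had the lowest value of the 11. The means were 92.1 ± 10.9 in sevoflurane animals and 83.0 ± 9.28 in control animals (SD, n = 5 and 6). Their difference of 9.09 points did not pass the exact permutation test (p = 0.171, adjusted p = 0.617, two-sided). Ranked by the authors' log10 p-value in place of fold enrichment, the difference was 14.4 points with an unadjusted exact permutation p of 0.0152. That ranking called 49 of 331 genes at an unadjusted p under 0.05, against 29 by fold enrichment, and 0 after adjustment. By fold enrichment, with 1 animal left out, the difference ranged from 7.37 to 13.8 points. It was 13.8 without S1, the lowest value (exact permutation p = 0.019), 7.45 without D (0.352) and 7.79 without F (0.324). Lists of 452 to 1673 peaks were ranked, so a difference in rank does not show a change in methylation.

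The percentile test by fold enrichment was run on all 331 genes with a peak in at least 3 animals of each group. At an unadjusted p under 0.05 it called 29 of them (8.76%), and after adjustment 0 (0.0%), with a smallest adjusted p of 0.461. Members made up 0 of these 29, ADGRL1 and ADGRB1 being among those tested. Few members had peaks in enough animals for this test, so the lack of calls says little about the families.

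Brain-specific angiogenesis inhibitor 1 (ADGRB1, ENSMMUG00000019877), a receptor for apoptotic cells that also acts at excitatory synapses, had peaks in 4 sevoflurane and 3 control animals. All 7 shared a stretch spread over exonic blocks between chr8:141706256-141718108 on the plus strand. The percentile of its strongest peak was 41.9 in D, 59.6 in F, 68.0 in S1 and 46.1 in S2, and 26.6 in B, 12.9 in C and 39.5 in C2. The means were 53.9 ± 12.0 in sevoflurane animals and 26.4 ± 13.3 in control animals (SD, n = 4 and 3). The difference of 27.6 points had an exact permutation p of 0.0571 and an adjusted p of 0.461, where 4 animals against 3 can give no exact p below 0.0286. Ranked by the authors' log10 p-value, the difference was 22.9 points (exact permutation p = 0.114). By that ranking control C2 (75.8) lay above sevoflurane animal D (64.2). A weaker second stretch near the 3′ end, at chr8:141786664-141787355, was present in sevoflurane animal S2 (2.54-fold) and control animal C2 (2.23-fold).

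The other 5 adhesion receptors with a peak were each seen in 1 control animal. ADGRB2 had a peak in B, ADGRV1, the very large receptor of hair-cell stereocilia, in C, and ADGRB3, ADGRG1 and ADGRL3 in C3. ADGRG1 (GPR56) is known for its part in cortical folding. The enrichment of these single peaks was 3.91, 26.9, 2.43, 3.02 and 5.28, in the order named. Sevoflurane lists held 1.8 ± 0.45 adhesion receptors with a peak and control lists 2.33 ± 1.21 (SD, n = 5 and 6), with 1 to 4 in a control animal.

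**Figure D4:**
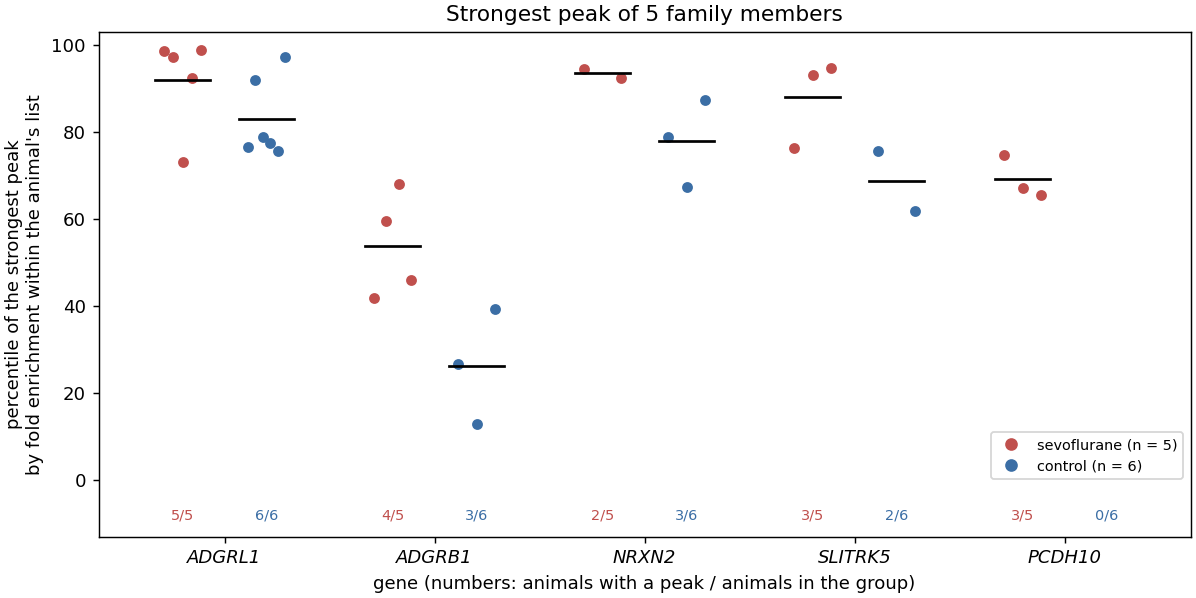
The percentile of the strongest peak by fold enrichment within each animal's own list is shown for 5 members, sevoflurane animals in red left of control animals in blue, 1 point per animal with a peak and a bar at the group mean. The numbers below give how many animals of the group had a peak. ADGRL1 lies above 70 in all 11 animals.

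Among the partners of latrophilins, all 4 teneurins, large transmembrane proteins that span from the membrane into the cleft, had a peak in some animal. TENM2 had peaks in sevoflurane animals S1 (3.99-fold) and S3 (3.49-fold) and in control animal C2 (12.3-fold). Those of S1 and C2 shared chr6:166497288-166497468, in the 3′ UTR and centred 1168 bases from its end, while that of S3 lay elsewhere in the gene. TENM3 had a peak in S3 and in C3 at different places, TENM4 in S2 and C3 at the same place (chr14:70888306-70888576, minus strand), and TENM1 in S2 alone. Teneurins averaged 1.0 ± 1.0 genes in sevoflurane animals and 0.5 ± 0.84 in control animals (SD, n = 5 and 6). FLRT2, a leucine-rich repeat ligand of latrophilins, had 1 peak of 5.68-fold, in S2.

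The presynaptic receptor neurexin 2 (NRXN2) had peaks in the 3′ UTR of the plus strand, at chr14:9868022-9868232, in 2 sevoflurane and 3 control animals. The enrichment was 41.8 in D and 31.9 in S2, and 26.9 in C, 9.92 in C1 and 21.1 in C3. A second peak a short way upstream, at chr14:9867663-9867783, accompanied it in S2 (10.1-fold) and C1 (5.21-fold). The percentile of the strongest NRXN2 peak was 94.5 in D and 92.5 in S2, and 79.0 in C, 67.5 in C1 and 87.3 in C3. NRXN3 had 1 peak, also in the 3′ UTR, in control C2 (13.2-fold).

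The neuroligin, LRRTM and LRFN genes with a peak were each listed in a single animal, as were 55.9% of all genes with a peak. Neuroligin 1 (NLGN1) had 1 peak, in control C3 (7.04-fold). LRRTM1, a leucine-rich repeat ligand of neurexins, had 1 peak in control C2 (7.09-fold). LRFN5, which binds presynaptic phosphatases, also had 1 peak in C2 (7.57-fold). No sevoflurane list held a neuroligin, LRRTM or LRFN gene. All 3 of these peaks had an authors' p above 1e-05 and shared their fold enrichment and p-value with another peak of the same list.

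SLITRK genes, whose products control neurite growth and synapse formation, were present in 4 of the 5 sevoflurane and 3 of the 6 control animals. The number of SLITRK genes with a peak was 1 in D, 2 in F, 0 in S1, 2 in S2 and 3 in S3, and 2 in A, 0 in B, C and C1, 1 in C2 and 1 in C3. The means were 1.6 ± 1.14 and 0.667 ± 0.816 (SD, n = 5 and 6), a ratio of 2.4 beside 1.74 for all genes. In lists cut to equal length they were 0.6 ± 0.548 and 0.333 ± 0.516, a ratio of 1.8. SLITRK5 was the most frequent, with peaks at chr17:69118603-69122234 on the plus strand in sevoflurane animals F (19.3-fold), S2 (33.0-fold) and S3 (41.9-fold) and in control animals C2 (18.9-fold) and C3 (7.92-fold). All 5 are females, of 7 females in the study, and none of the 4 males had the peak. This was noticed after the values were seen and was not tested against sex. Presence did not differ by treatment (Fisher's exact p = 0.567, adjusted p = 0.901). In 4 of the 5 animals the peak was a single block centred 746 to 896 bases from the 5′ end of the transcript, and in S2 it had a second block farther downstream.

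The remaining SLITRK genes had at most 2 peaks each. SLITRK3 had peaks at 2 places in D (24.2-fold) and F (17.0-fold), and SLITRK2 at 2 places in S2 (3.73-fold) and S3 (14.0-fold). Neither was listed in a control animal (Fisher's exact p = 0.182, the smallest that 2 animals can give, and adjusted p = 0.606 for each). SLITRK1 had a peak in S3 and in A, at different places, and SLITRK4 in A alone. By fold enrichment the SLITRK peaks ranked higher than those of most families, with a median percentile of 75.3, against 48.7 for all member peaks and 50.3 for all 10069 peaks. That median rests on 12 peaks, 5 of them in SLITRK5. Of the 12, 8 (66.7%) shared fold enrichment and p-value with another peak of their list, against 33.4% of all peaks.

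Protocadherins had the largest difference between the group means of the 11 families. The number of PCDH genes with a peak was 3 in D, 2 in F, 2 in S1, 3 in S2 and 1 in S3 among sevoflurane animals. It was 2 in A, 1 in C3 and 0 in B, C, C1 and C2 among control animals. The means were 2.2 ± 0.84 and 0.5 ± 0.84 (SD, n = 5 and 6), and all 5 sevoflurane animals, against 2 of the 6 control animals, had at least 1. The ratio of these means, 4.4, stands beside 1.74 for all genes, with the family picked out after its values were seen. With every list cut to its 452 peaks of lowest log10 p-value, protocadherins averaged 0.6 ± 0.89 genes in sevoflurane animals and 0.333 ± 0.516 in control animals, a ratio of 1.8.

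The delta-protocadherins PCDH10 and PCDH17, homophilic adhesion molecules of cortical and limbic circuits, each had a peak in D, S1 and S2 and in 0 of the 6 control animals. Peaks in sevoflurane animals alone, in any number of them, were seen in 1650 of all 3671 genes (44.95%), and the sevoflurane lists were mostly the longer. Of these 1650 genes, 1298 were seen in a single animal, so this share is not that of genes in 3 animals. For both PCDH10 and PCDH17, Fisher's exact p was 0.0606, which is the smallest that 3 animals can give, and the adjusted p was 0.606. PCDH10 was listed at 1 place, chr5:132724351-132724620 on the plus strand, with 16.5-fold enrichment in D, 9.97-fold in S1 and 8.52-fold in S2. Its centre was 1421 to 1452 bases from the 5′ end of the transcript. PCDH17 was listed at 3 places that did not overlap, chr17:37181612-37181791 in D (6.05-fold), chr17:37180743-37180833 in S1 (10.8-fold) and chr17:37181402-37181552 in S2 (16.0-fold). Almost the same bases as in S1 were also listed there as a peak of another gene identifier, with the same 10.8-fold enrichment. Left without F or without S3, sevoflurane animals that lacked both peaks, the unadjusted Fisher p fell below 0.05 for the 2 genes, while no adjusted p did. Leaving out a sevoflurane animal without the peak lowers this p by itself, so these 2 runs lend no support. In them the genes called after sevoflurane rose from 27 to 56 and 69. With any other animal left out, 0 members were called. In lists cut to 452 peaks, PCDH10 had a peak in 2 sevoflurane and 0 control animals and PCDH17 in 0 of either. PDGFRA, a marker of oligodendrocyte precursors, had the same count of 3 sevoflurane and 0 control animals, in D, F and S2, and its part in these results was not tested.

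PCDH7, another delta-protocadherin, had peaks in D and F and in A and C3. Those of D, A and C3 lay at chr5:30214966-30215175, within 2 overlapping gene identifiers and listed under both, and that of F lay elsewhere in the gene. PCDHGB5, of the gamma cluster, had peaks in S2 and S3, and PCDHAC2, of the alpha cluster, in F (22.7-fold). Genes of these clusters share their last exons, and peaks there could be assigned to any of them. PCDH8 had 1 peak, in control A (2.97-fold).

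**Figure D5:**
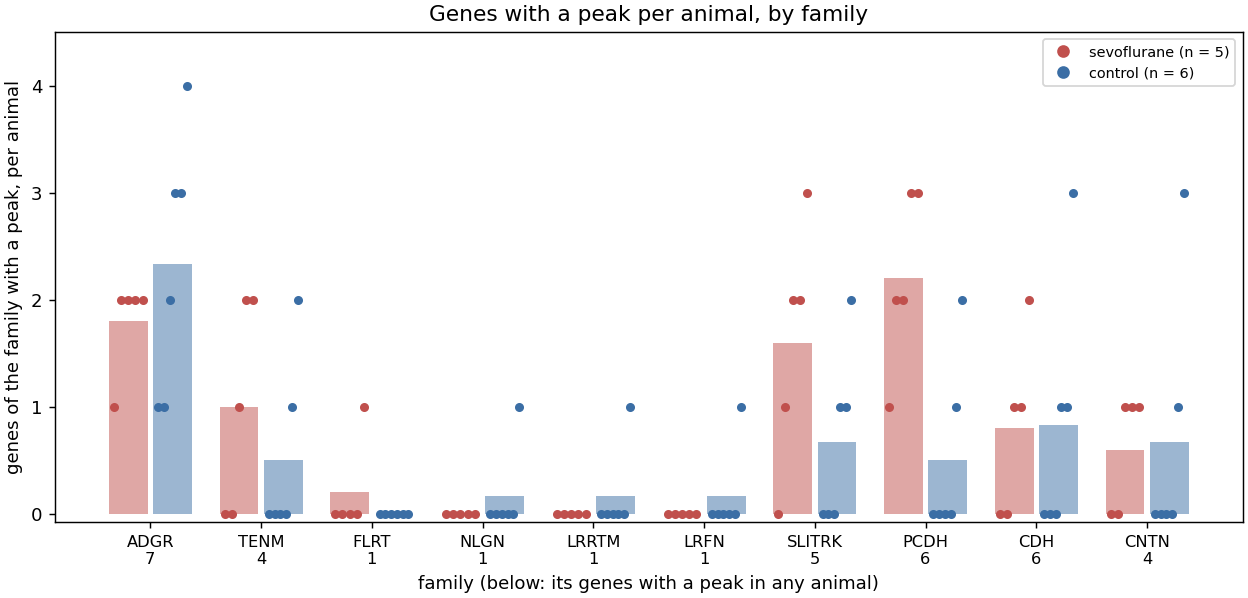
Bars give the mean number of genes with a peak per animal in 10 families and points the single animals, sevoflurane in red left of control in blue. The number under each family counts its genes with a peak in any animal. Protocadherins average 2.2 genes in sevoflurane animals and 0.5 in control animals, SLITRK genes 1.6 and 0.667, and the ADGR, CDH and CNTN families have means that differ by less than the SD of the control animals. In lists cut to equal length, which are not drawn, both protocadherins and SLITRK genes average 0.6 in sevoflurane and 0.333 in control animals.

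Classical and related cadherins showed no such difference, with 0.8 ± 0.84 genes in sevoflurane animals and 0.833 ± 1.17 in control animals (SD, n = 5 and 6). CDH10 had peaks in S1 (2.56-fold) and S3 (6.99-fold) and in A (4.62-fold), at 3 different places. CDH18 had peaks in B (5.05-fold) and C2 (24.6-fold), at 2 places, and in no sevoflurane animal. CDH20 and N-cadherin (CDH2), which joins pre- and postsynaptic membranes, were listed in control A alone, CDH4 in S3 and CDH6 in D. Control A thus held 3 of the 6 cadherins seen, and F, S2, C, C1 and C3 held none.

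Contactins and their relatives were split likewise, with 0.6 ± 0.55 genes in sevoflurane animals and 0.667 ± 1.21 in control animals (SD, n = 5 and 6). CNTN2 (TAG-1), an axonal contactin of the region flanking the node of Ranvier, had peaks in S1 (5.52-fold) and in B (14.1-fold) and C2 (7.57-fold), at 3 places. CNTNAP1 (Caspr), which anchors myelin loops beside the node, had peaks in F (2.75-fold) and B (4.09-fold). CNTN4 was listed in S3 and CNTNAP4 in B. Control B held 3 of the 4 genes.

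Few of the rarer members had peaks at the same place in different animals. Of the 8 members seen in 2 animals, 1 (TENM4, 12.5%) had a stretch shared by both, against 288 of 641 genes (44.9%). Of the 5 members seen in 3 animals, 2 (PCDH10 and TENM2, 40.0%) had a stretch shared by at least 2, against 247 of 305 genes (81.0%). All 6 members seen in 4 or more animals had one, as did 665 of 672 genes (99.0%). The genes are not matched for length, and longer genes offer more places, so these shares are a description.

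The position of member peaks along the transcript depended on ADGRL1. Of the 99 member peaks whose position within the transcript could be computed, 53.5% lay beyond 80% of its length from the 5′ end, against 37.3% of 9549 peaks in all. Without ADGRL1 the share of member peaks was 40.0%, their median position was 47.6% of the length, against 64.7% for all peaks, and 36.0% of them lay within the first 20%, against 25.0% of all peaks. Protocadherin peaks lay at the other end, with 60.0% of 15 within the first 20%. In members, 51.0% of the peaks of sevoflurane animals and 56.3% of those of control animals lay beyond 80%. Distances include introns, which in genes of this length take up most of the span.

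The member peaks resembled the lists as a whole in strength. Their median fold enrichment was 5.95, against 6.03 over all peaks, and 69.3% of them had an authors' p of at most 1e-05, against 65.2% of all peaks. Without the peaks of ADGRL1 the member values were 5.62 and 62.2%. Fold enrichment and p-value were both identical to those of another peak of the same list for 48 of the 114 member peaks (42.1%), against 33.4% of all peaks. Without ADGRL1 the member share was 46.7%. In control C, for example, ADGRL1, NRXN2 and ADGRV1 all stood at 26.9, so their order within that list is not resolved. Keeping only peaks with p of at most 1e-05 left 22 members, 6.2 ± 1.48 per sevoflurane animal and 5.0 ± 1.41 per control animal (SD, n = 5 and 6). With every list cut to 452 peaks, 17 members were left.

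A larger share of these families than of all named genes was listed. The supplied table of gene names held 114 symbols of these families, and 38 of them (33.3%) had a peak in some animal, against 3383 of all 18036 symbols (18.8%). The share was 100% for teneurins, 80.0% for SLITRK genes, 40.0% for contactins, 26.1% for cadherins, 25.9% for adhesion receptors, 25.0% for LRRTM genes, 24.0% for protocadherins, and 20.0% for both neuroligins and LRFN genes. SLITRK1 was named in the peak tables alone and is not in these shares. Neither expression nor gene length was matched.

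A further list took in 50 partners of these families in trans-synaptic adhesion, of which 19 had a peak. Sevoflurane animals held 9.0 ± 1.22 of them and control animals 6.5 ± 1.87 (SD, n = 5 and 6), and 0 of the 8 that could be tested were called, beside the 1.82% given above. Of these 8, only CTNNA2, PTPRF and LINGO1, in 5, 6 and 7 animals, could have reached an unadjusted Fisher's exact p under 0.05. The rest, in 2 or 8 animals, could not have been called. LRRC4C (netrin-G ligand 1), the postsynaptic scaffold SHANK1 and ELFN2, which binds presynaptic-side metabotropic glutamate receptors, had peaks in all 11 animals. CADM3 had them in 5 sevoflurane and 5 control animals, and LRRC4B in 4 of each. LINGO1, a leucine-rich repeat receptor of axons and myelin, was listed in 5 sevoflurane and 2 control animals (Fisher's exact p = 0.0606, adjusted p = 0.606). CTNNA2, the neuronal alpha-catenin that links cadherins to actin, was listed in 4 and 1 (Fisher's exact p = 0.0801, adjusted p = 0.606), and PTPRF, an axonal phosphatase receptor bound by LRRC4B, in 4 and 2 (Fisher's exact p = 0.242, adjusted p = 0.635).

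The tissue label could be checked only through presence of peaks. Of 6 neuronal markers, RBFOX3 had a peak in 3 sevoflurane and 4 control animals, CAMK2A in 2 and 2 and SYT1 in 0 and 2, while SNAP25, STMN2 and NRGN had none. Of 5 oligodendrocyte-lineage markers, PDGFRA was listed in 3 sevoflurane and 0 control animals (Fisher's exact p = 0.0606, adjusted p = 0.606) and MBP in 1 and 0. The astrocyte marker SLC1A3 and the microglial marker CX3CR1 were listed in 1 control animal each, and no marker of endothelium (0 of 4) or blood (0 of 3) had a peak. A marker without a peak may still be expressed.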

How the data were processed

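m6A immunoprecipitation was followed by stranded sequencing of prefrontal cortex RNA, per the labels' protocols. The tools in the submitters' processing notes are cutadapt, Trim Galore 0.5.0, StringTie and HISAT2 2.1.0, and the build is rheMac8. For the peak caller and its background, the name is not given in the sources used here. The 11 input libraries were not analysed here. Each deposited row is a peak with a fold enrichment (a ratio), a p-value and 2 negative scores, the log10 of the p-value and of the false discovery rate, all the authors' own, per the file headers. No p-value exceeded 0.001 and no fold enrichment was under 2.06. Starts count from 0, and 1 was added. Depth is unknown, so no interval for counting error was made.

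A gene had a peak by the gene in which it was called, and 520 peaks (5.16%) were annotated to another gene, 15 of them member peaks. Identifiers were matched to symbols without versions, 3235 of 3671 through the supplied table and 250 through the peak tables, with 186 unnamed. Stretches join peaks with exonic blocks overlapping by at least 1 bp on 1 strand, and printed spans include introns. Authors' UTR classes are given for plus-strand genes only. Fisher's exact test ran on genes and stretches in 2 to 9 animals. Numbers of genes and percentiles were compared by exact permutation tests (462 splits of 5 and 6 animals, smallest p = 0.00216). Benjamini-Hochberg adjustment covered all features tested. Python 3.11.15, pandas 2.3.3 and scipy 1.17.1 were used, and the tests were checked on simulated lists.

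The members, families and lists were chosen with earlier results of these data known. Named members were ADGRL1, those with an unadjusted p under 0.05, the 12 in most animals, up to 8 per direction by difference in share of animals and the most frequent of each family, 23 in all. The other 16 are named because each family held few genes with a peak, 7 at most, and were chosen after their values were seen. A member that the rule takes is not reported here. Labels name each animal separately, and IP and input libraries share animal names. The alternatives were a stricter p, equal list length, the annotated gene, ranking by log10 p, 50% reciprocal overlap, strata by sex and by naming style, a replicate block and leaving out each animal.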

Additional observations from a re-analysis of the deposited data

Results flagged for a closer look

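Control C3 stood apart from the other control animals, with 1210 peaks and 1050 genes with a peak, against 452 to 703 peaks in the other 5. Its gap to the next control exceeded the critical value of Dixon's test for 6 values in both counts. Of 15 such groups of values examined, chance flags about 1 in 20. C3 also held 11 family members, ADGRB3, ADGRG1, ADGRL3 and NLGN1 among them, which no other animal had. The cause was not tested.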

How the results depend on the processing

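The higher number of genes with a peak after sevoflurane (log2 difference 0.84) kept its direction in every setting run. It was 0.70 within males (exact p = 0.333), 0.96 within females (0.0857), 1.02 within single-letter animals (0.10) and 0.67 within numbered animals (0.20), of which only the females could give a p under 0.05, and ranged from 0.75 to 1.02 with each animal left out. With the replicate number as a replicate block over the numbered animals it was 0.67 (exact sign-flip p = 0.25, the smallest possible), and the members' difference was 2.33. Nothing in the labels says that these numbers pair animals.

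Genes more frequent after sevoflurane at an unadjusted p under 0.05 numbered 27, with 10 under the stricter p, 4 at equal list length and 31 to 85 with an animal left out (without S1 85, S3 69, C3 59, F 56, D 55 and S2 46). Those more frequent in controls numbered 0, and 1 without B or C1. Members numbered 0, and 0 to 2 with an animal left out (PCDH10 and PCDH17, without F or S3). Stretches numbered 19, with 11 under the stricter p, 4 at equal length and 22 to 68 with an animal left out (without S1 68, S3 62, C3 43, F 42, D 39 and S2 32), and member stretches 0 to 1 (PCDH10, without F or S3). Percentile calls numbered 29, with 49 by log10 p-value, 11 over genes in all 11 animals, 18 under the stricter p and 8 to 36 with an animal left out (without S2 8, S3 15, D 16, F 17, C 18 and C2 19). No adjusted p fell below 0.05 in any of these.

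The members' difference per animal, 2.1, became -0.63 at equal length and ranged from 1.2 to 2.8 with each animal left out. The share difference of -0.31 points kept its sign, at -0.13 with lists of equal length, -0.29 under the stricter p and -0.42 to -0.24 with an animal left out. Chosen after seeing the data, leaving out C3 and S2 gave 2.2 members and -0.34 points. Why list length turns the members' order was not tested.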

Other observations

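PCDH10 and PCDH17 were listed in the same 3 animals, D, S1 and S2, which include both sevoflurane males and 1 of the 3 sevoflurane females. SLITRK5, by contrast, was listed in 5 females and 0 of the 4 males. Both patterns were noticed after the values were seen, and neither was tested against sex.

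Taking the gene of the annotation column in place of the gene in which a peak was called brought in peaks annotated to CDH4 in C3, PCDHAC2 in D and PCDH17 in S1. The last, at chr17:37180742-37180831 with 10.8-fold enrichment, covers almost the same bases as the S1 peak already counted for PCDH17. Under that reading 37 members had a peak, 8.6 ± 1.52 per sevoflurane animal and 6.67 ± 3.08 per control animal (SD, n = 5 and 6).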
